A study of Mus musculus with 36 samples.

Results

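Day 24 is the time point at which BALB/c mice had spent 21 days at 0.5 atm and then 3 days back at sea-level pressure, and it is represented by 4 of the 36 arrays of the study, chosen by their titles. Each array set cDNA of whole lung from the hypoxia-exposed mice, pooled from 5 animals, against cDNA from a pool of 5 control mice matched for time, on spotted 2-colour glass arrays. The other 32 arrays cover days 1, 3, 7, 14 and 21 of hypoxia and days 22, 28 and 35, which are 1, 7 and 14 days after the return to sea level, with 4 arrays and a control pool of its own for each day. No allele or drug treatment is named for either kind of mouse. Nothing in the labels says that replicates 1 to 4 came from separate mice or pools, so the p-values below reflect differences among arrays that may be technical alone. Values are log2 ratios, read here as positive where the hypoxia-exposed lung is higher. That direction is likely rather than settled: the protocol lists hypoxic RNA and Cy5 first, and no dye swap is recorded. Ratios carry no absolute levels, so the tissue label could not be checked against the levels of lung markers.

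Chronic low oxygen constricts and remodels the small arteries of the lung, raising pulmonary artery pressure; smooth muscle and matrix accumulate in the vessel wall, the blood carries more red cells, and these changes regress after the return to normal oxygen. Endothelial cells line these vessels and respond to endothelin, thrombin and transforming growth factor beta. Secretory cells of the lung fold the proteins they export in the endoplasmic reticulum (ER), whose chaperones are induced together by the unfolded protein response.

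The 4 arrays of day 24 had values at 14655 to 14935 of the 15388 spots, and having only 4 of them limits the precision. Spots of one gene symbol were averaged, which gave 12338 features (genes, or single spots without a usable name) with a value on at least 3 of the 4 arrays. Replicates 1 and 2 correlated with r = 0.58 across features and replicates 3 and 4 with r = 0.70, whereas arrays taken across these pairs correlated with r between 0.37 and 0.42. Features are not independent replicates, so these correlations describe the arrays. What the pairs mark is not stated in the labels. Counts of calls at day 24 are therefore given for each pair apart and with the pair as a random block. Single arrays or pairs are shown for some genes and lists, and many genes are given only as a mean of the 4 arrays.

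Day 24 was first set against its own control, to ask how far the lung still differed on the third day of recovery. Genes of ER protein folding were among those lower, with 9 of 32 tested lower and none higher, and the changes were small. Of 10 endothelial markers 3 were lower and none higher, and none of 15 smooth muscle genes passed. Immediate early genes were mixed, with 3 of 21 lower and 2 higher. In all, 359 of 12338 features passed a limma adjusted p of 0.05, which is 2.91 percent, with 97 higher (0.786 percent) and 262 lower (2.12 percent). Their median absolute log2 ratio was 0.34. Centring each array on its median gave 395, with 64 higher and 331 lower, so that 16.2 percent of the calls were higher, against 27 percent without centring. Named genes made up 240 of the 359, with 72 higher and 168 lower, each on all 4 arrays; one sign on all 4 arrays was shown by 41 percent of all features with 4 values.

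All 359 features had the same sign in the mean of replicates 1 and 2 as in the mean of replicates 3 and 4, against 66.6 percent of all tested features. Calling on the mean of both pairs favours a shared sign, so that count is a description. Replicates 1 and 2 alone gave 136 calls (1.15 percent) and replicates 3 and 4 alone gave 85 (0.695 percent), and 21 features were called in each pair alone, all with the same sign. With the pair as a random block 30 features passed (0.243 percent), of which 27 were lower and 3 higher. The 12 named genes among them were *Acsl4*, *Bag3*, *Canx*, *Cdk16*, *Cpt1a*, *Egr1*, *F2r*, *Fos*, *Lamc1*, *Pknox2*, *S100a9* and *Tram1*. Leaving out replicate 1, 2, 3 or 4 of day 24 gave 109, 82, 135 and 144 calls. Of the 78 called genes named here, 21 kept their call without each of the 4 arrays in turn, and *Fos* and *Egr1* kept it under every setting tried.

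**Figure D1:**
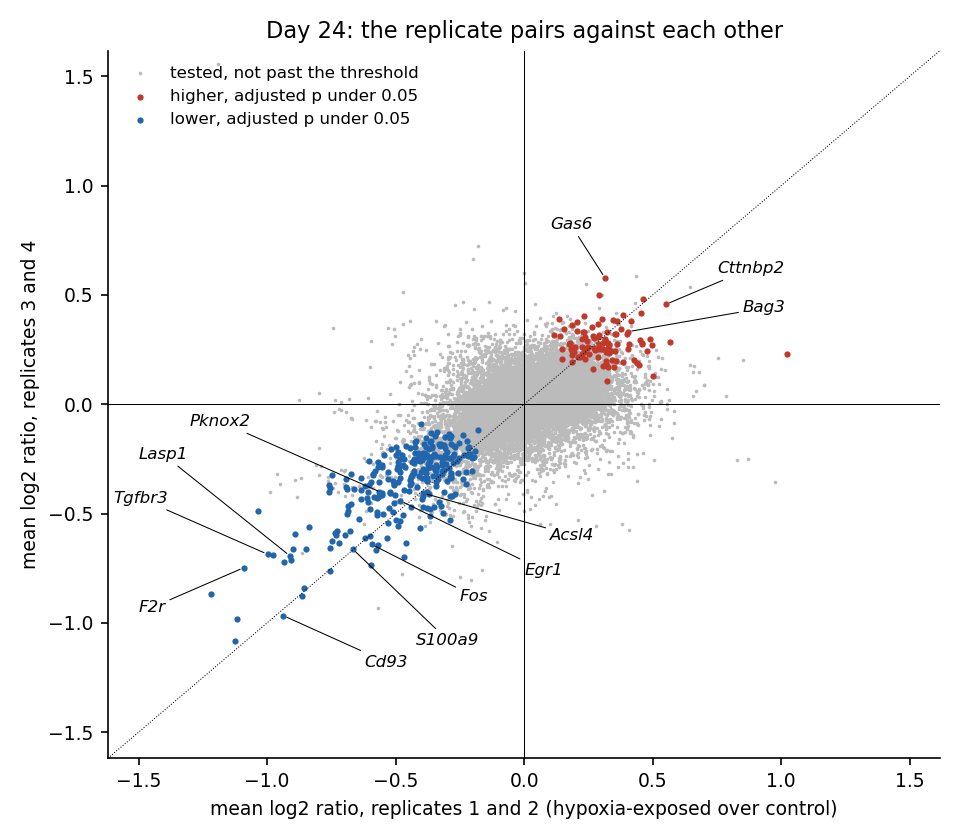
Mean log2 ratio at day 24 of replicates 1 and 2 (x axis) against that of replicates 3 and 4 (y axis) for the tested features, with those past a limma adjusted p of 0.05 in red (97 higher) and blue (262 lower). The called features all lie in the lower left and upper right, and the dotted line marks equal values.

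Among vascular genes, *Cd93*, a lectin-like receptor of endothelial and myeloid cells, had the lowest mean of the named genes. Its log2 ratios were -1.09, -0.78, -1.03 and -0.90 in replicates 1 to 4, a mean of -0.95 ± 0.14 (SD, n = 4; limma adjusted p = 0.011). All 4 arrays lay well below 0, and the pairs overlapped each other, but the call was lost without any 1 of the arrays. In whole lung, fewer cells of a type and less RNA per cell cannot be told apart. *F2r*, the thrombin receptor PAR1, was at -1.26, -0.92, -0.87 and -0.62, a mean of -0.92 ± 0.26 (adjusted p = 0.00029), and it passed with the pair as a block (adjusted p = 0.048). Replicates 1 and 2 were the lower pair for this gene. *Tgfbr3*, the betaglycan co-receptor for transforming growth factor beta, averaged -0.84 ± 0.28 (adjusted p = 0.0081), and *Ltbp1*, which holds latent transforming growth factor beta in the matrix, averaged -0.74 ± 0.29 (adjusted p = 0.04). For both of these genes replicate 2 was the lowest array, at -1.24 and -1.16, and neither passed with the pair as a block (adjusted p = 0.27 and 0.41). *Ltbp1* lost its call without any 1 array and *Tgfbr3* without 1 of the 4.

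The endothelin receptor gene *Ednrb* was at -0.27 ± 0.06 and *Ece1*, which encodes the enzyme that matures endothelin, at -0.23 ± 0.11 (adjusted p = 0.036 and 0.019). In the list of pulmonary hypertension and vascular tone genes, these and *F2r* were the 3 of 19 tested members that fell, and no member rose. The list median was -0.15, against 0.03 for all features tested. Of the 19 means 4 were positive, against 7039 of all 12338 features tested. *F2r* alone of them passed with the pair as a block, and *Ednrb* lost its call without any 1 array. *Nppb*, the natriuretic peptide BNP, was at 0.37 ± 0.16 and did not pass (adjusted p = 0.13). *Bmpr2*, the receptor gene mutated in heritable pulmonary arterial hypertension, was at -0.33, -0.32, -0.11 and -0.13 and did not pass (adjusted p = 0.45). Of 10 tested endothelial markers 3 fell (*Cd93*, *Ednrb* and *Ece1*), none rose, and the median was -0.05. *Emcn*, an endothelial sialomucin, was at 0.27 ± 0.10 and did not pass (adjusted p = 0.27).

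The other strongly lowered named genes have varied roles. *Lasp1*, an actin-binding adaptor, averaged -0.80 ± 0.33, and *Usp22*, the deubiquitinase of the SAGA complex, -0.78 ± 0.18. *Kctd10*, an adaptor of cullin ubiquitin ligases, averaged -0.76 ± 0.36, and *Pcdh17*, an adhesion protein, -0.65 ± 0.30. *Prelp*, a leucine-rich matrix protein, was nearly even across the arrays at -0.67, -0.77, -0.65 and -0.62. *Cdk16*, a cyclin-dependent kinase, averaged -0.58 ± 0.14. For these 6 genes limma gave adjusted p from 0.00042 to 0.0053. *Pknox2* (-0.48 ± 0.12), a homeobox gene, and *Ptbp3* (-0.53 ± 0.12), an RNA-binding protein gene, were named after their values were seen because they were called in each pair alone.

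Higher named genes changed less. *Cttnbp2*, a cortactin-binding protein, had the highest mean of the named genes, with 0.30, 0.80, 0.42 and 0.49, a mean of 0.50 ± 0.21 (adjusted p = 0.041). Replicate 2 stood above the other 3 arrays. *Gas6*, the ligand of the Axl and Mertk receptors, averaged 0.45 ± 0.18 (adjusted p = 0.0019), and *Fxyd6*, a regulator of the sodium pump, 0.44 ± 0.04 (adjusted p = 0.043). *Gaa*, the lysosomal enzyme that degrades glycogen, was at 0.37 ± 0.06 (adjusted p = 0.0013), and *Col4a5*, a basement membrane collagen chain, at 0.36 ± 0.05 (adjusted p = 0.0061). *S100g* (0.38 ± 0.21), which encodes a calcium-binding protein, was the 1 of 10 tested alveolar type II markers that rose. The tight junction gene *Cldn7* (0.37 ± 0.09), the transcription factor gene *Irx3* (0.34 ± 0.14), *Unc119b* (0.37 ± 0.15) and *Ak8* (0.36 ± 0.08) were also higher on all 4 arrays. *Gas6* and *Gaa* kept the call without each array in turn, whereas *Cttnbp2*, *Fxyd6*, *Cldn7*, *Irx3* and *Ak8* lost it without any 1 array.

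**Figure D2:**
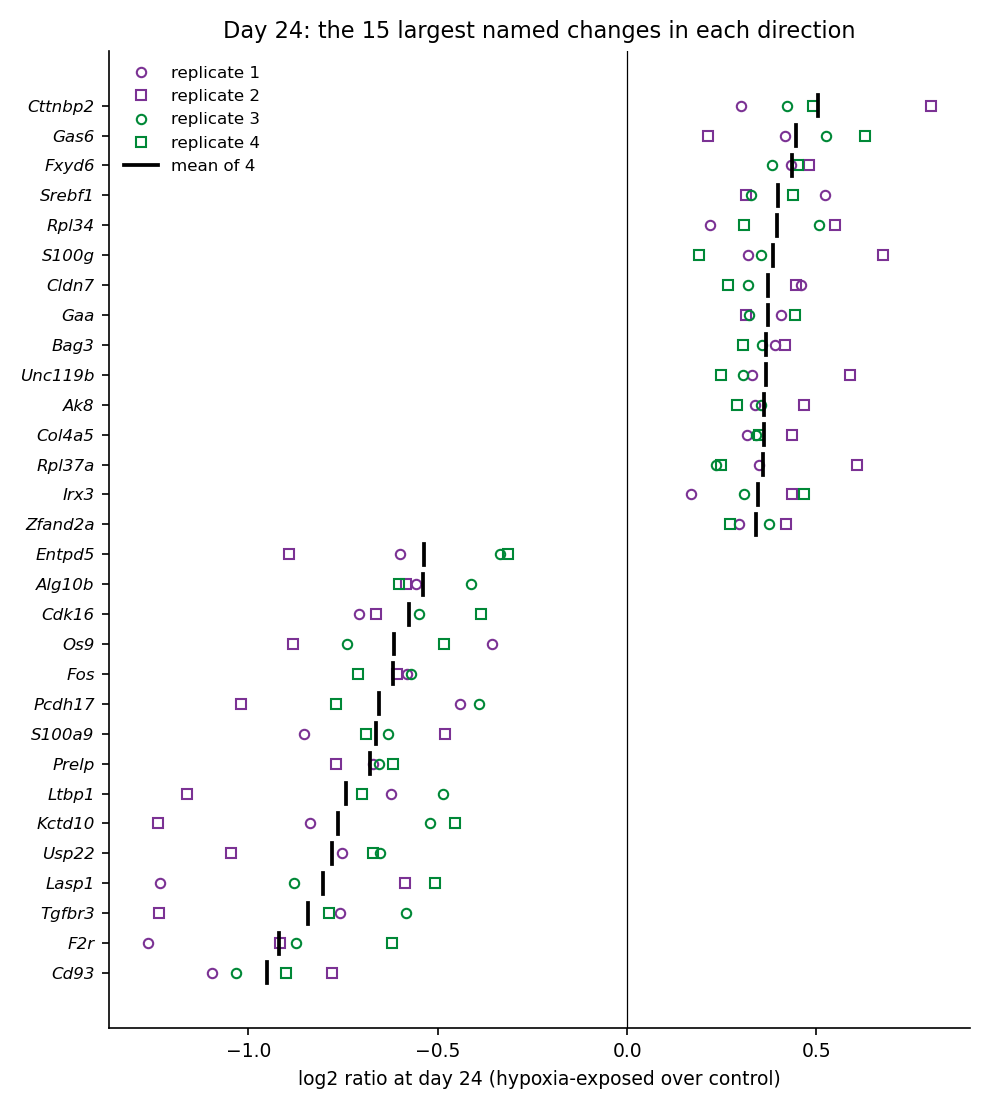
Log2 ratios at day 24 on each of the 4 arrays for the 15 named genes with the largest mean in each direction among those past the threshold with the same sign on all 4 arrays, with the mean of the 4 as a bar. The higher genes have means between 0.34 and 0.50, and the lower ones between -0.95 and -0.54.

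Protein folding in the ER was the list with the most lowered members, 9 of 32 tested with none higher. Its median log2 ratio was -0.11, against 0.03 for all features tested. Of its 32 means 8 were positive, against 7039 of all 12338 features tested. *Hsp90b1*, the ER chaperone GRP94, was at -0.59, -0.65, -0.43 and -0.32, a mean of -0.50 ± 0.15 (limma adjusted p = 0.0038). *Canx*, the lectin chaperone calnexin, was at -0.34, -0.43, -0.31 and -0.32, a mean of -0.35 ± 0.06 (adjusted p = 0.00095). Every array was negative for both genes, and *Canx* is measured by 4 spots whose means ran from -0.91 to -0.03. *Pdia6* (-0.37 ± 0.14), a protein disulphide isomerase, and *Sec61a1* (-0.35 ± 0.30), the channel subunit of the translocon, also fell. *Sec61a1* was uneven, with -0.78 on replicate 1 and -0.12 on replicate 4.

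The other 5 lowered members were named after their values were seen. *Hspa5*, the chaperone BiP that senses unfolded proteins, averaged -0.29 ± 0.11, and *Dnajb9*, its co-chaperone, -0.31 ± 0.06. *Ern1*, the stress sensor IRE1, averaged -0.23 ± 0.03, and the disulphide isomerases *Pdia4* and *Pdia3* -0.25 ± 0.18 and -0.22 ± 0.10. The 4 spots of *Ern1* disagreed, with means from -0.55 to 0.02, and the 3 spots of *Hspa5* ran from -0.48 to -0.04. Adjusted p lay between 0.011 for *Hspa5* and 0.042 for *Pdia4*. Of the 9, *Canx* kept its call without each array in turn, and *Pdia6*, *Dnajb9*, *Ern1* and *Pdia3* lost it without any 1 array. Chosen in the same way, *Tram1* (-0.42 ± 0.04) and *Sec63* (-0.46 ± 0.17) of the translocon and *Srpr* (-0.43 ± 0.06), a receptor subunit for the signal recognition particle, were lower too. By the rule of size, so were *Os9* (-0.61 ± 0.24), a lectin for misfolded glycoproteins, *Alg10b* (-0.54 ± 0.09), a glucosyltransferase of N-glycan assembly, and *Entpd5* (-0.54 ± 0.27), an ER enzyme of glycoprotein folding. Not all members moved down: *Syvn1*, the ubiquitin ligase of ER-associated degradation, was at 0.08 ± 0.03 (adjusted p = 0.57), and *Calr*, calreticulin, at -0.13 ± 0.13 (adjusted p = 0.63). Replicates 1 and 2 alone called 4 list members lower and replicates 3 and 4 alone none, with list medians of -0.15 and -0.10. With the pair as a block, an alternative chosen after seeing the data, only *Canx* of the list passed (adjusted p = 0.036).

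The ER chaperone promoters are shown because many of them carry the ER stress response element, the site through which the factors ATF6 and NF-Y induce them. The element was searched as CCAAT and CCACG with 9 bases of any kind between them, on both strands of the RefSeq promoter windows of GRCm38.p6. It was present in 39 of 32851 windows (0.119 percent), which belong to 37 of 27025 genes (0.137 percent). Of the 27 list genes with a window 7 carried it. Among the 8 lowered list genes with a window, the 4 carriers were *Hsp90b1*, *Canx*, *Hspa5* and *Pdia6*. The other 3 carriers were *Calr*, *Dnajc3* and *Syvn1*, which did not pass. Capitals mark the element, which lies on the reverse strand in its second copy in *Hsp90b1*, and positions are counted from the annotated start. A match describes these letters and is not a binding site.
*Hsp90b1*, chr10:86705505-86705664, minus strand, elements at -212 to -194 and -107 to -89: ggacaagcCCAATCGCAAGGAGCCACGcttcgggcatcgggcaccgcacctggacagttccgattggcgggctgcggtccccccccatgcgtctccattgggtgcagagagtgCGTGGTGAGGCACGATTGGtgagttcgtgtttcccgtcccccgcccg
*Canx*, chr11:50325764-50325843, minus strand, element at -145 to -127: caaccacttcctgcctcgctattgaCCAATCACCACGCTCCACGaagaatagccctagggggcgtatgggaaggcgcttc
*Hspa5*, chr2:34771990-34772069, plus strand, element at -65 to -47: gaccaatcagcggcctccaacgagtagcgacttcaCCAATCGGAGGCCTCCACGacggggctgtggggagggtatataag
*Pdia6*, chr12:17266459-17266538, plus strand, element at -98 to -80: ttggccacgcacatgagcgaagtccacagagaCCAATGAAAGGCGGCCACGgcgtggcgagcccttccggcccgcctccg

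Immediate early genes, which growth factors and stress induce within minutes to hours, moved in both directions. *Fos*, a subunit of the transcription factor AP-1, was at -0.58, -0.61, -0.57 and -0.71, a mean of -0.62 ± 0.06 (limma adjusted p = 6.9e-06). *Egr1*, a zinc finger transcription factor, was at -0.49, -0.48, -0.34 and -0.54, a mean of -0.46 ± 0.08 (adjusted p = 3.1e-06). These were among the most even of the lowered genes, with similar values in both pairs, and both passed with the pair as a block (adjusted p = 0.0033 and 0.0017). *Rgs2*, a brake on G protein signalling in vessels, named after its value was seen, was also lower (-0.22 ± 0.05, adjusted p = 0.022). In the opposite direction *Atf3*, a stress-induced factor, rose by 0.30 ± 0.07 (adjusted p = 0.047) and *Klf4* by 0.25 ± 0.11 (adjusted p = 0.036), and neither held with the pair as a block (adjusted p = 0.44 and 0.26) or without any 1 array. Of 21 tested list members 2 rose and 3 fell, and the median was -0.03.

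The *Fos* promoter is shown because this gene differs from every neighbouring day below. The cyclic AMP response element core TGACGT and the TATA box TATAAA, in capitals, occur in 7.51 and 13.6 percent of all promoter windows on either strand. They start 66 and 33 bases before the annotated start of *Fos*.
*Fos*, GRCm38.p6 (RefSeq), chr12:85473790-85473889, plus strand: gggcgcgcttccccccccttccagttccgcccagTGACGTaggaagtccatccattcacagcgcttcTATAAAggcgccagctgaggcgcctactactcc

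Of the fatty acid and sterol genes 2 of 34 rose and 3 fell. *Srebf1*, the factor that drives lipid synthesis, was at 0.52, 0.31, 0.33 and 0.44, a mean of 0.40 ± 0.10 (limma adjusted p = 0.033). *Lss*, lanosterol synthase of the cholesterol pathway, named after its value was seen, rose by 0.34 ± 0.08 (adjusted p = 0.018). *Cpt1a*, which admits long-chain fatty acids to mitochondria for oxidation, was at -0.39, -0.64, -0.48 and -0.50, a mean of -0.50 ± 0.10 (adjusted p = 0.00037). *Acsl4*, which activates polyunsaturated fatty acids, averaged -0.40 ± 0.09 (adjusted p = 0.00037), although its 2 spots disagreed, with means of -0.87 and 0.07. *Hadha*, of the mitochondrial trifunctional protein, averaged -0.39 ± 0.24 (adjusted p = 0.048). The 29 other members tested did not pass, and the list had a median of 0.02 that was -0.00052 after centring. *Cpt1a* and *Acsl4* passed with the pair as a block (adjusted p = 0.031 and 0.034), whereas *Srebf1* did not (adjusted p = 0.39), and *Srebf1* and *Hadha* lost their calls without any 1 array.

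Of the cytosolic and mitochondrial chaperones 3 of 33 rose and 1 fell, with a median of -0.01. *Bag3*, a co-chaperone of stressed muscle and heart, rose evenly, with 0.39, 0.42, 0.36 and 0.31 (adjusted p = 0.00039), and passed with the pair as a block (adjusted p = 0.021). *Zfand2a* (0.34 ± 0.07), a stress-induced partner of the proteasome, and *Dnaja3* (0.22 ± 0.03), a mitochondrial co-chaperone, also rose. *Hspa4l*, a heat shock protein of the HSP110 family, fell to -0.53 ± 0.18 (adjusted p = 0.005). The other 29 members did not pass. With the pair as a block *Zfand2a*, *Dnaja3* and *Hspa4l* lost their calls (adjusted p = 0.41, 0.2 and 0.085). *Zfand2a* also lost its call without any 1 array, *Dnaja3* in 2 of 4 such fits and *Hspa4l* in 1.

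Ribosomal protein genes mostly had positive means. Of 68 tested members 66 had a positive mean and 3 passed, all higher, where 0.786 percent of all features passed as higher. Of all 12338 features tested, 7039 had a positive mean. The list median was 0.19 against 0.03 for all features tested. With arrays scaled to a common spread 33 of the 68 passed as higher, and 835 of all 12338 features. *Rpl34* averaged 0.40 ± 0.16, *Rpl37a* 0.36 ± 0.17 and *Rps19* 0.28 ± 0.05 (adjusted p = 0.01, 0.033 and 0.01). The median was 0.26 in replicates 1 and 2 and 0.11 in replicates 3 and 4. Oxidative phosphorylation subunits were similar, with 49 of 55 means positive and a median of 0.13, but none passed as higher, and the 1 call was *Ndufa7*, a complex I subunit, lower at -0.35 ± 0.12. Splicing factors had 6 of 63 members lower and none higher, with a median of -0.01. *Srsf5*, an SR protein, was at -0.50 ± 0.10, *Rbm39* at -0.32 ± 0.11, *Hnrnpm* at -0.31 ± 0.16 and *Rbm25* at -0.26 ± 0.07. None of the ribosomal, respiratory or splicing calls held with the pair as a block.

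**Figure D3:**
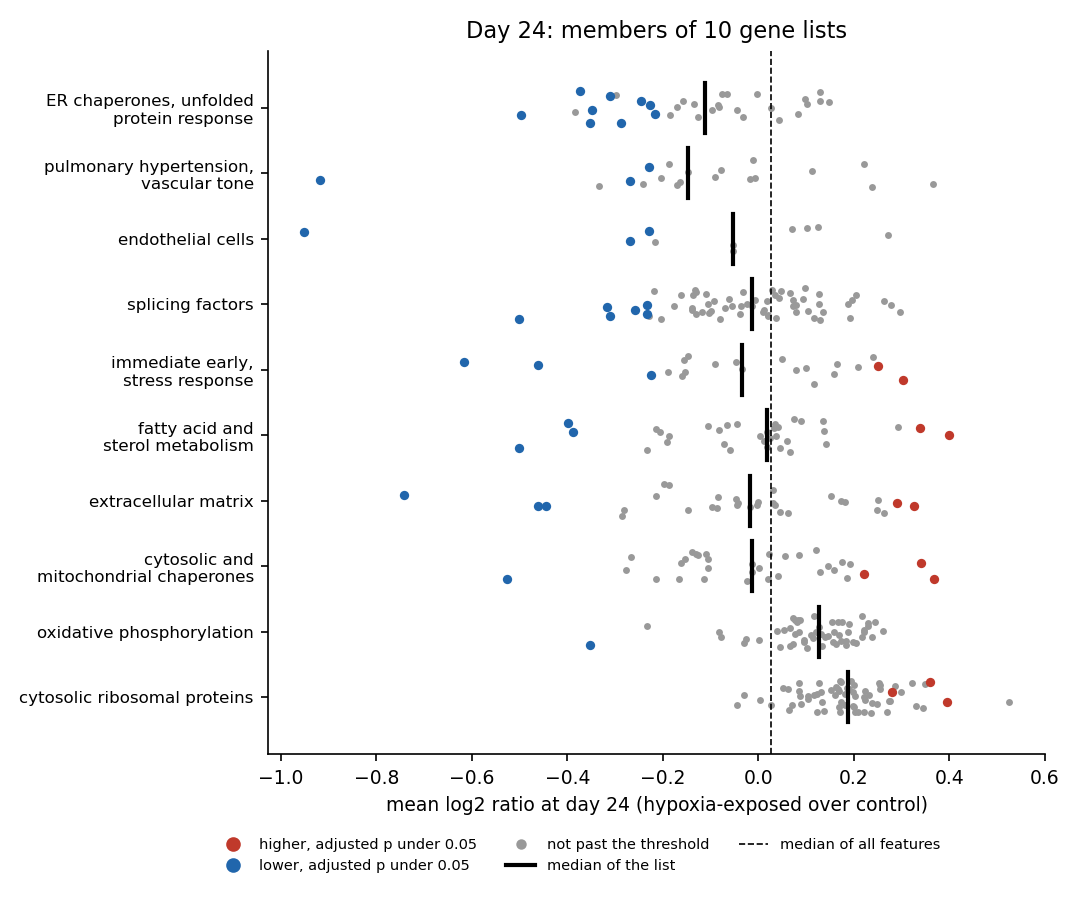
Mean log2 ratio at day 24 of the tested members of 10 gene lists (1 point a gene, vertical jitter for display), with members past a limma adjusted p of 0.05 in colour, the list median as a bar and the median of all features (0.03) as a dashed line. The ER list holds 9 lowered members, and the ribosomal and respiratory lists lie mostly right of the dashed line.

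Matrix genes were mixed. *Lamc1*, a laminin chain of basement membranes, averaged -0.46 ± 0.15 (adjusted p = 0.00037), although its 3 spots ran from -0.73 to -0.10. *Fn1*, fibronectin, averaged -0.44 ± 0.16 (adjusted p = 0.025). *Lum* and *Col3a1*, which build the collagen fibrils of fibroblasts, rose by 0.33 ± 0.11 and 0.29 ± 0.05 (adjusted p = 0.0084 and 0.0019). With *Ltbp1*, 2 of 31 members rose and 3 fell, and the median was -0.02. *Lamc1* passed with the pair as a block (adjusted p = 0.036), whereas *Fn1*, *Lum* and *Col3a1* did not (adjusted p = 0.34, 0.21 and 0.09). *Fn1* lost its call without any 1 array and *Lum* without 1 of the 4. Of the core clock and its outputs, *Tef* (-0.46 ± 0.13) and *Nr1d2* (-0.38 ± 0.14) fell, 2 of 10 tested. Neither passed with the pair as a block (adjusted p = 0.29 and 0.24). *Tef* lost its call in 1 and *Nr1d2* in 3 of 4 fits that left out an array. The clock activator *Arntl* was at 0.51, 0.78, 0.52 and 0.56 and did not pass (adjusted p = 0.12), although all 4 arrays were positive. Its day means were 1.55 at day 14, 1.52 at day 21, 1.09 at day 22, 0.59 at day 24 and -0.02 at day 28.

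Markers of blood and immune cells were mostly near 0. *S100a9*, a calcium-binding protein that is abundant in neutrophils, was at -0.85, -0.48, -0.63 and -0.69, a mean of -0.66 ± 0.15 (adjusted p = 0.00025), and was the 1 of 7 tested neutrophil markers that fell. *Tfrc*, the transferrin receptor, averaged -0.35 ± 0.10 (adjusted p = 0.035), although its 3 spots ran from -0.65 to 0.02. It was the 1 of 19 erythroid and globin genes that passed, and the globin gene *Hbb-b1* was at 0.14 ± 0.12 (adjusted p = 0.44). None of 15 smooth muscle, 10 macrophage, 12 airway, 3 alveolar type I, 4 lymphocyte, 2 MHC class II, 6 muscle, 3 adipose and 1 thymus marker passed, with medians between -0.21 and 0.14. Centring gave 1 smooth muscle gene as lower and no other call in these lists. Scaling gave 4 smooth muscle, 2 adipose and 1 lymphocyte marker as lower, and 3 airway, 2 muscle, 1 macrophage and 1 MHC class II marker as higher. In the smooth muscle list the lowest p belonged to calponin (*Cnn1*), at -0.28 ± 0.07 (adjusted p = 0.063). *Top2a*, a topoisomerase of dividing cells, was the 1 of 58 cell cycle genes that fell (-0.25 ± 0.09, adjusted p = 0.041). The death receptor gene *Fas* averaged -0.39 ± 0.08 (adjusted p = 0.0021). *S100a9* passed with the pair as a block (adjusted p = 0.0044), whereas *Tfrc*, *Top2a* and *Fas* did not (adjusted p = 0.35, 0.39 and 0.11). *Tfrc* and *Top2a* lost their calls without any 1 array. The part of cell composition in these changes was not tested.

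The HIF targets had 1 of 22 higher (*Vldlr*, a lipoprotein receptor, 0.31 ± 0.15) and 1 lower (*Tfrc*). Glycolysis had 1 of 16 higher, the lactate transporter gene *Slc16a1* (0.27 ± 0.14). The proteasome list had 2 of 30 lower, *Psmd2* (-0.32 ± 0.20) and *Psme4* (-0.29 ± 0.09). Matrix proteases and inhibitors had *Cst3*, cystatin C, higher (0.30 ± 0.09) and *Plat*, tissue plasminogen activator, lower (-0.32 ± 0.26) among 21. *Smurf2*, a ubiquitin ligase of the BMP and TGF-beta pathway, averaged -0.21 ± 0.04 and made 3 of 24 lower in that list with *Tgfbr3* and *Ltbp1*. In the interferon list *Sp100* (-0.53 ± 0.18) was the 1 of 15 lower, and *Ces1d*, a carboxylesterase (0.22 ± 0.05), was the 1 of 33 higher among antioxidant and xenobiotic genes. None of 9 inflammatory mediators passed. Of all features tested, 0.786 percent passed as higher and 2.12 percent as lower. None of the calls in these lists held with the pair as a block. *Vldlr*, *Tfrc*, *Psmd2*, *Cst3*, *Smurf2* and *Ces1d* lost their calls without any 1 array, and *Slc16a1* and *Plat* lost theirs in 3 of 4 such fits. The 2 spots of *Plat* had means of -0.46 and -0.01.

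Calls at day 24 were compared with those of the other days as a description, since all days share an estimate of the spread for each feature but no control pool. No dye swap is recorded, and the part of dye differences in the shared calls was not tested. Of the 97 higher features 84.5 percent were also called higher at day 28, 68 percent at day 14, 40.2 percent at day 21 and 12.4 percent at day 22. Of the 262 lower ones 93.9 percent were also called lower at day 28, 82.8 percent at day 14, 36.3 percent at day 21 and 8.4 percent at day 22. Seen from day 28, whose lists held 2280 higher and 1662 lower features, the shared calls were 3.6 and 14.8 percent. From day 21, with 274 and 283, they were 14.2 and 33.6 percent, and from day 22, with 99 and 93, they were 12.1 and 23.7 percent. At days 1, 3 and 7 the shared parts of the day 24 lists were 39.2, 42.3 and 61.9 percent of the higher and 76.7, 66 and 81.3 percent of the lower features, and at day 35 they were 14.4 and 11.8 percent. The shares of all tested features called higher and lower were 18.6 and 13.5 percent at day 28, against 0.805 and 0.756 percent at day 22. They were 10.6 and 9.04 percent at day 1, 13.3 and 9.96 at day 3, and 20.43 and 15.45 at day 7. At days 14, 21 and 35 they were 15.5 and 12.2, 2.2 and 2.3, and 1.8 and 1.4 percent. The days thus differ in how many calls there are to share. *Cd93*, *F2r* and *Tgfbr3* stood at -1.26, -1.41 and -1.34 at day 28. The means of the features at day 24 correlated with those at days 1, 3, 7, 14, 21, 22, 28 and 35 with r = 0.62, 0.49, 0.60, 0.57, 0.58, 0.45, 0.72 and 0.33.

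**Figure D4:**
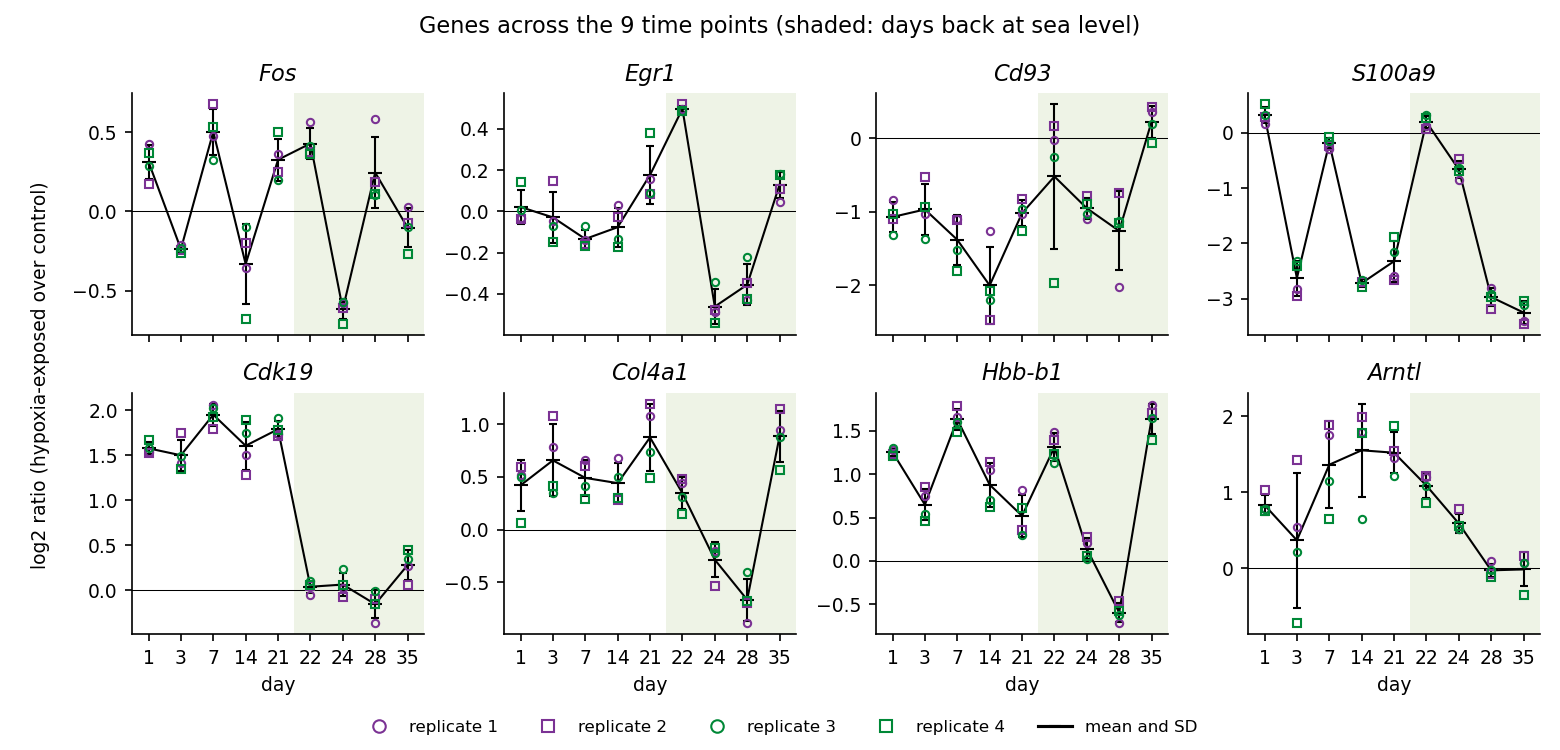
Log2 ratios of 8 genes, picked after their values were seen, at the 9 time points, with each array as a point and the mean with its SD over 4 arrays as a line. *Fos* and *Egr1* have their lowest means at day 24, *Cdk19*, *Col4a1* and *Hbb-b1* are near or below 0 there, and *S100a9* and *Arntl* lie between their values at days 22 and 28.

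The difference between day 24 and day 21, the last day of hypoxia, asked what had changed over the first 3 days at sea level. Of 30 tested matrix genes 8 were lower at day 24 than at day 21 and none higher, and the neutrophil gene *S100a9* was less reduced. In all 38 of 12169 features passed (0.312 percent), 13 higher (0.107 percent) and 25 lower (0.205 percent) at day 24. The count was 17 without replicate 1 of day 21, and 22, 19, 23 and 24 without replicates 1, 2, 3 and 4 of day 24. With the pair as a block it was 11.

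*Cdk19*, a kinase of the Mediator complex, had the largest named fall, with 0.03, -0.07, 0.24 and 0.06 at day 24 against 1.74, 1.72, 1.92 and 1.78 at day 21. The groups lie far apart, a difference of -1.72 ± 0.11 (SE; limma adjusted p = 2e-12). *Col4a1*, a chain of basement membrane collagen IV, was at -0.21, -0.54, -0.22 and -0.18 at day 24, against 1.08, 1.19, 0.74 and 0.49 at day 21, a difference of -1.16 ± 0.16 (adjusted p = 5.9e-05). Its partner chain *Col4a2* differed by -1.11 ± 0.19, the elastic fibre gene *Mfap4* by -1.12 ± 0.20 and the matricellular gene *Spon2* by -1.06 ± 0.21. *Fn1*, *Sparc*, *Tnc* and *Mgp* differed by -0.76, -0.69, -0.64 and -0.47, and complete the 8. The list median was -0.34, against 0.0039 for all features tested, and 23 of the 30 differences were negative. *Col4a1* and *Mfap4* also passed with the pair as a block (adjusted p = 0.0022 and 0.04), *Col4a2* narrowly did not (adjusted p = 0.053), and *Spon2* did not (adjusted p = 0.22). No smooth muscle gene of 15 passed, with a median of -0.17.

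**Figure D5:**
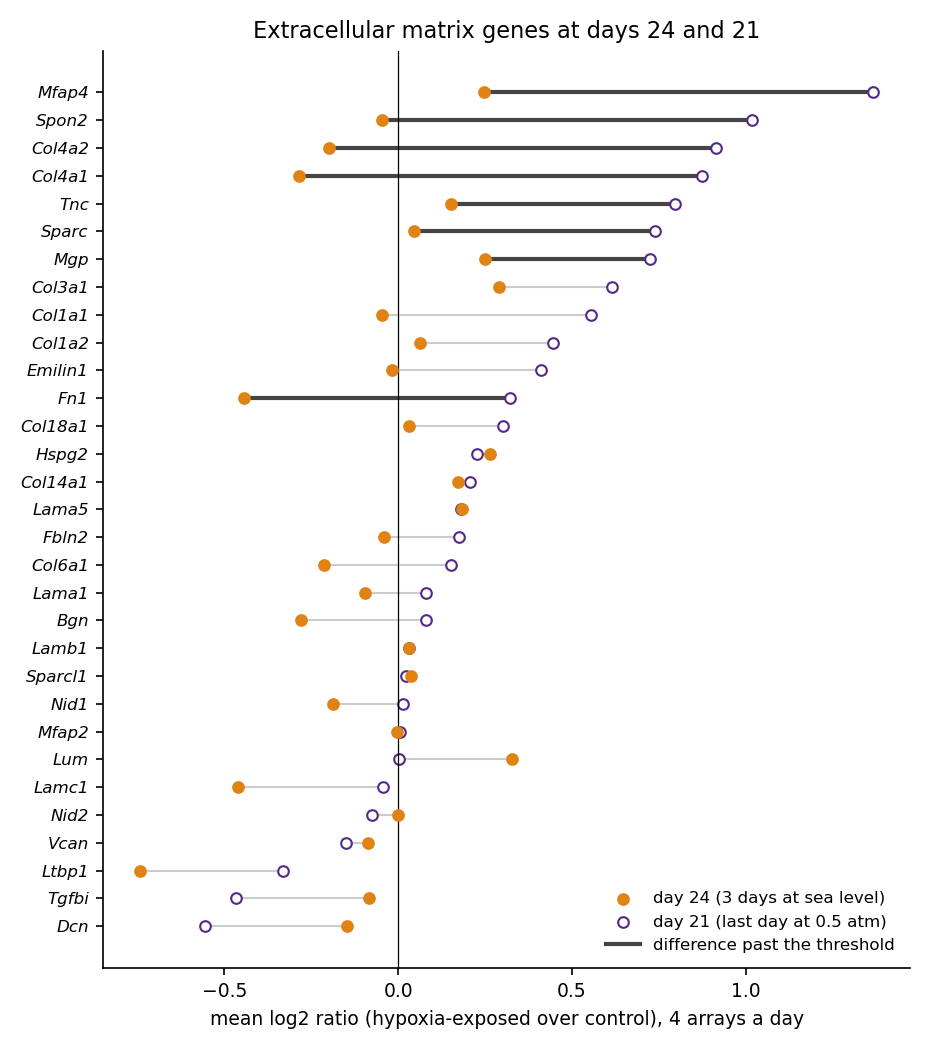
Mean log2 ratio of the 31 extracellular matrix genes tested at day 24, at day 24 (filled) and day 21 (open), 4 arrays a day, ordered by the value at day 21. Dark lines mark the 8 differences past a limma adjusted p of 0.05, in each of which day 24 is the lower.

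Of 58 cell cycle genes 3 were lower and none higher, with a list median of -0.13. These were *Top2a*, *Cdk1* and *Ccna2*, which differed by -0.70, -0.67 and -0.39. *Mest*, an imprinted gene of growing mesenchyme, differed by -0.81 ± 0.09, and *Serpina1e*, a protease inhibitor of the antitrypsin family, by -0.82 ± 0.18. *Serpina1e* lost its call in 5 of 8 fits that left out an array. Immediate early genes were divided, with *Fos* (-0.94), *Sgk1* (-0.73) and *Egr1* (-0.64) lower and *Klf4* (0.42) and *Rgs2* (0.36) higher.

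*S100a9* was higher by 1.66 ± 0.14 (adjusted p = 7.8e-09), with -0.85, -0.48, -0.63 and -0.69 at day 24 against -2.60, -2.66, -2.15 and -1.88 at day 21. *Ppbp*, a chemokine of platelets, was higher by 0.84 ± 0.13, *Plac8*, a leukocyte gene, by 0.82 ± 0.14 and *Igfbp3*, a carrier of insulin-like growth factors, by 0.76 ± 0.12. *Slc40a1*, the iron exporter ferroportin, was higher by 0.54 ± 0.10, and *Tax1bp1*, an autophagy receptor, by 0.55 ± 0.11. At day 24 *Ppbp*, *Slc40a1* and *Igfbp3* had means of 0.17, 0.10 and -0.08. The 2 spots of *Plac8* were at -0.04 and -0.01, and those of *Tax1bp1* at -0.28 and -0.12. *Mylpf*, a fast muscle myosin light chain, was higher by 0.84 ± 0.19 and *Cbr2*, a reductase of airway cells, by 0.63 ± 0.14, but each lost its call in 7 of 8 fits that left out an array, and *Tax1bp1* in 4. With the pair as a block *Plac8*, *Slc40a1*, *Tax1bp1*, *Mylpf*, *Cbr2* and *Serpina1e* lost their calls (adjusted p = 0.13, 0.16, 0.21, 0.53, 0.32 and 0.22). The named genes were required to have arrays that do not overlap between the days, which held for 4.66 percent of features.

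The comparison with day 22 asked what changed between the first and the third day of recovery. Globin genes and immediate early genes were lower at day 24, and a pair of co-chaperone genes higher. Of 12200 features 69 passed (0.566 percent), 10 higher (0.082 percent) and 59 lower (0.484 percent), and 6.03 percent had arrays that do not overlap. The beta-globin gene *Hbb-b1* was at 0.21, 0.27, 0.02 and 0.05 at day 24 against 1.49, 1.40, 1.13 and 1.23 at day 22, a difference of -1.18 ± 0.12 (adjusted p = 1.6e-07). The embryonic globin genes *Hbb-y* and *Hba-x*, named after their values were seen, differed by -0.93 and -0.92, and these 3 were the erythroid genes lower among 19. *Phtf1*, a testis transmembrane protein gene, and *Got2*, mitochondrial aspartate aminotransferase, differed by -1.06 ± 0.14 and -0.97 ± 0.11. Over the 9 days their means moved with those of *Hbb-b1*: at days 22, 24 and 28 *Got2* was at 1.12, 0.15 and -0.67 and *Hbb-b1* at 1.31, 0.14 and -0.60. Whether the *Phtf1* and *Got2* spots read globin RNA was not tested, nor whether the *Hbb-y* and *Hba-x* spots read RNA of other globin genes.

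*Prnd*, which encodes the prion-like protein doppel, was at 0.12, 0.09, 0.35 and 0.32 at day 24 against 1.49, 1.39, 1.24 and 1.06 at day 22, a difference of -1.07 ± 0.19 (adjusted p = 0.0016). *Fos* differed by -1.05 ± 0.11, *Egr1* by -0.96 ± 0.08 and *Atf3* by -0.54 ± 0.12, and no immediate early gene was higher. *S100a9* differed by -0.86 ± 0.14, with a mean of -0.66 at day 24 against 0.19 at day 22. The co-chaperones *Dnaja1* and *Bag3* were higher by 0.44 ± 0.06 and 0.43 ± 0.08, with *Dnaja1* at 0.08, 0.20, 0.18 and 0.12 at day 24 against -0.29, -0.28, -0.28 and -0.31 at day 22. *Xlr3c*, an X-linked gene, was higher by 0.90 ± 0.18, *Podxl*, a sialomucin of endothelium, by 0.45 ± 0.11 and *Lum* by 0.44 ± 0.10. *Podxl* and *Lum* lost the call in 6 and 5 of 8 fits that left out an array. With the pair as a block 40 features passed, and *Bag3*, *Prnd*, *Xlr3c*, *Podxl* and *Lum* lost their calls (adjusted p = 0.073, 0.064, 0.12, 0.76 and 0.52).

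The comparison with day 28 asked what changed between the third and the seventh day of recovery. Interferon-induced genes, *S100a9* and some ER chaperone genes had higher ratios at day 24 than at day 28, when they were lower than control. Of 12174 features 93 passed (0.764 percent), 74 higher (0.608 percent) and 19 lower (0.156 percent), and 10.5 percent had arrays that do not overlap. The count depended on single arrays: it was 50, 163, 47 and 50 without replicates 1 to 4 of day 24, and 53 and 194 without replicates 1 and 3 of day 28. With the pair as a block 28 passed, 26 of them higher.

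*Tgtp1*, a GTPase induced by interferon, was at -0.28, -0.36, -0.25 and -0.30 at day 24 against -1.42, -1.66, -1.55 and -1.61 at day 28, a difference of 1.26 ± 0.11 (adjusted p = 1.2e-08). *Ly6e* and *Phf11d*, also interferon-induced, were higher by 1.33 ± 0.16 and 1.28 ± 0.16. Of 15 tested interferon genes 7 were higher and none lower, with a list median of 0.31 against -0.02 for all features tested. *Igtp*, *Stat2*, *Ifitm3*, *Sp100*, *Irf9* and *Ddx58* were higher by 1.13, 1.01, 0.93, 0.72, 0.68 and 0.54. The ratios of the list had a median of 0.00094 at day 24 against -0.31 at day 28. No member passed as higher than control at day 24. *Bst2*, tetherin, differed by 1.26 ± 0.22, but at day 24 its pairs lay on opposite sides of 0, with 0.25, 0.22, -0.21 and -0.23.

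*S100a9* was higher by 2.31 ± 0.14 (adjusted p = 2.8e-12), against a mean of -2.97 at day 28. *Hspa5* was higher by 0.57 ± 0.09, with -0.41, -0.36, -0.20 and -0.19 at day 24 against -1.06, -0.94, -0.68 and -0.76 at day 28. *Dnajb11*, *Manf* and *Dnajb9* were higher by 0.47, 0.47 and 0.43, which makes 4 of 32 ER genes with none lower and a list median of 0.23. The ratios of the ER list had a median of -0.11 at day 24 against -0.30 at day 28, and the SD of all feature means was 0.153 at day 24 against 0.276 at day 28. *Pknox2* was lower, with -0.47, -0.64, -0.34 and -0.47 at day 24 against 0.52, 0.40, 0.43 and 0.67 at day 28, a difference of -0.98 ± 0.10 (adjusted p = 5.2e-08). *Fos* differed by -0.86 ± 0.11, *Hmcn1*, a matrix protein gene, by -0.62 ± 0.11, *Efna1*, an ephrin, by -0.43 ± 0.09 and *Rbm3*, a cold-induced RNA-binding protein, by -0.39 ± 0.09. *Rbm3* lost its call in 5 of 8 fits that left out an array, and *Hmcn1*, *Efna1* and *Rbm3* lost theirs with the pair as a block (adjusted p = 0.086, 0.22 and 0.36). *Egr1* did not share the course of *Fos* here, with a mean of -0.36 at day 28.

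Against the mean of the other 8 days, 108 of 12105 features differed at day 24 (0.892 percent), 33 higher (0.273 percent) and 75 lower (0.62 percent). The count was 69, 52 and 55 without replicates 1, 3 and 4, and 47 with the pair as a block. *Fos* differed by -0.76 ± 0.08 (adjusted p = 3.6e-07) and *Egr1* by -0.49 ± 0.06 (adjusted p = 2e-06), and both had their lowest day mean at day 24. The other day means of *Fos* lay between -0.33 and 0.50, and those of *Egr1* between -0.36 and 0.50. *Sgk1*, a kinase induced by glucocorticoids, differed by -0.38 and completed the 3 of 21 immediate early genes that were lower.

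Of 31 matrix genes 9 were lower and none higher against the other days, with a median difference of -0.26 against -0.01 for all features tested. *Col4a2*, *Col4a1*, *Mfap4*, *Fn1*, *Tnc*, *Sparc*, *Mgp*, *Lamc1* and *Col3a1* differed by -0.79, -0.72, -0.66, -0.60, -0.56, -0.44, -0.42, -0.32 and -0.26. *Adamts1*, a matrix protease, and *Serpinh1*, the collagen chaperone HSP47, differed by -0.42 and -0.45. *Erdr1* differed by -0.50 ± 0.09, *Serpina1e* by -0.54 ± 0.13, and *Dysf*, dysferlin, by -0.50 ± 0.12 on 3 arrays of day 24. *Plac8* was higher by 0.61 ± 0.10, *Mylpf* by 0.64 ± 0.14, *Ppbp* by 0.46 ± 0.10, *Cybb*, the phagocyte oxidase subunit, by 0.40 ± 0.08, *Car8* by 0.39 ± 0.07 and *Fnip1*, a partner of folliculin, by 0.36 ± 0.09 on 3 arrays. Not all of these were above control at day 24. The means were -0.14 for *Cybb* and -0.11 for *Car8*, and the 2 spots of *Plac8* were at -0.04 and -0.01. *Mylpf*, *Ppbp* and *Fnip1* were at 0.45, 0.17 and 0.08. *Mylpf*, *Fnip1* and *Serpina1e* lost the call in each of the 4 fits that left out an array of day 24. *Fos*, *Egr1*, *Plac8* and *Car8* were the 4 of these 12 named genes that also passed with the pair as a block.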

How the data were processed

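Per the labels' protocols, each array was hybridised with cDNA of a hypoxia-exposed and a control pool coupled to Cy5 and Cy3 and read with GenePix Pro 4.0, and the authors deposited log2 ratios of median intensities after background correction, removal of flagged spots and lowess normalisation. No value was changed before analysis, and spots the authors removed are empty in the deposited log2 table. The means over an array were 0 and the medians 0.014 to 0.018 at day 24, so no further centring was made, and the array SDs ran from 0.169 to 0.264. Of 15388 spots 9598 had 1 symbol in the platform annotation, 514 several and 5276 none; spots of a gene were averaged and the rest kept apart, which gave 12761 features. Symbols were checked through Entrez identifiers in RefSeq (GRCm38.p6; 9510 matched, none changed).

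limma 3.58.1 (lmFit, eBayes) in R 4.3.3 was fitted to all 36 arrays with 1 mean per day, so that the days share an estimate of the spread per feature; tests are two-sided, and p was adjusted by Benjamini-Hochberg across the whole of each comparison, with 0.05 as the threshold. Features needed values on 3 of 4 arrays of each day compared, and on 2 at each other day for the mean of the other 8. Deviations from the day means of arrays with the same number at days 24 and 22 correlated at 0.44, 0.28, 0.40 and 0.38, all above 0.1, so by that limit the numbers were taken to pair these days, although only replicate 3 correlated best with its own number and the best matches lay within replicates 1 and 2 or 3 and 4.

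The text names only genes with a single, non-placeholder symbol: the 15 largest in each direction at day 24 with 1 sign on all 4 arrays, up to 8 (day 21), 5 (days 22 and 28) or 6 (other days) in each direction for the differences, up to 4 called members of each of 34 lists (or else the 2 lowest p), and 12 chosen genes. For the differences their arrays do not overlap or, against the other 8 days, the day 24 mean lies outside the range of the others. Members of lists called in the differences, and 15 further genes, were named after their values were seen. The day, the lists and the tests were chosen with earlier results of these data known.

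The model was tested on simulated data of 11868 genes. The simulated noise was independent between arrays, whereas the pair-block fit put the correlation within real pairs at 0.42. The rates below therefore do not show how the main fit performs on arrays that correlate within pairs. At day 24, 27 percent of 100 genes changed by 0.25 and 74 percent of 100 changed by 0.5 on the log2 scale were recovered, none in the wrong direction, and 4 unchanged genes were called. Changes of 0.5 were recovered for 35, 54, 44 and 63 percent against days 21, 22, 28 and the other 8 days. Alternatives were centring, scaling, stricter and looser limits on empty values, spots kept separate, a robust prior, fewer arrays, the replicate number or pair as a block, pair means as units, and leaving out each array. Intensities of the separate channels were not used here.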

Additional observations from a re-analysis of the deposited data

Results flagged for a closer look

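The differences between day 24 and other days were each tested directly with limma, and each comparison held features past the threshold: 38 against day 21, 69 against day 22, 93 against day 28 and 108 against the mean of the other 8 days. Among 111 named genes with 4 values at day 24, 4 had 1 array far from the other 3, with a gap to the nearest array, as a share of the whole range, above Dixon's limit for 4 samples. The shares were 0.833 for *Dnaja3*, 0.878 for *Ighm*, 0.9 for *Psmd2* and 0.898 for *Tef*. Chance alone flags about 5 percent of unselected groups of independent values. Many of these genes were named for a call or for 1 sign on all 4 arrays, so 4 of 111 cannot be judged against that rate. For *Psmd2*, *Tef* and *Ighm* the far array was replicate 2, at -0.63, -0.66 and -0.32, and for *Dnaja3* it was replicate 4, at 0.18.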

How the results depend on the processing

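Counts of calls at day 24, against 359, were 2332 with arrays scaled to a common spread, 1350 with only the arrays of that day, 775 with the replicate number as a block, 136 in replicates 1 and 2, 85 in 3 and 4, 30 with the pair as a random block, 19 with pair means as units, and 82 to 144 without 1 array. Against day 21 (38) they were 140 scaled, 79 with the replicate block, 12 and 20 in the pairs alone, 11 with the pair block, 4 with pair means and 17 to 35 without 1 array. Against day 22 (69) they were 310 scaled, 40 in replicates 1 and 2, 40 with the pair block, 6 with pair means and 50 to 66 without 1 array; the replicate block, which pairs these days, gave 91 and ended no named gene's call. Against day 28 (93) they were 55 scaled, 58 with only the arrays compared, 336 with the replicate block, 25 and 40 in the pairs alone, 28 with the pair block, 9 with pair means and 47 to 194 without 1 array. Against the other days (108) they were 272 scaled, 48 and 60 in the pairs alone, 47 with the pair block, 3 with pair means and 52 to 74 without 1 array, and 162 with the replicate block. Same-number deviations at day 24 correlated at 0.55, 0.03, 0.38 and 0.17 with those at day 21 and at -0.02, 0.20, 0.28 and 0.36 with those at day 28, so 1 of 4 was not above 0.1 at each day and the numbers were not taken to pair them. Scaling divides the ratios of each array by their spread over features. The array SDs were 0.169 to 0.264 at day 24, and 0.52 for replicate 1 of day 28. Pair means leave fewer units, and single pairs and omitted arrays leave fewer arrays. The causes of the changed counts were not tested. Centring, limits on missing values, single spots and the robust prior kept all 5 counts within 1.5 times. No result reversed under the settings tried.

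Limits: 4 arrays of what may be 1 pool per condition, a replicate-pair offset that recurs at other days (the pairs' half-difference at day 24 correlated with those of the other days at r between 0.43 and 0.62), no recorded dye swap, and ratios without signal levels.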
